A study of Mus musculus with 6 samples.

Results

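The 48 rows described here are variable (V) segments of the T cell receptor, the part of the receptor genes from which each T cell keeps a single rearranged choice per productive chain. They were chosen as the rows whose gene identifier maps to a symbol starting with Trav (alpha chain) or Trbv (beta chain) and whose mean over the 6 libraries was at least 1 FPKM, fragments scaled for transcript length and library size. The table held 52 rows with such a symbol among 36811 rows, 32 of them Trav and 20 Trbv, and 29 Trav and 19 Trbv met the minimum. The reference names list 128 Trav and 35 Trbv symbols, and those with no row were not analysed here. Of the 4 rows that did not meet the minimum, Trav4d-2 had a mean of 0.569 FPKM and Trav9d-4 one of 0.392 FPKM, while Trav6n-5 and Trbv10 were listed at 0 in every library. The member nearest to the minimum was Trav13-3, at a mean of 1.07 FPKM.

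RNA came from regulatory T cells (Treg) of the spleen of C57BL/6 mice aged 18 to 21 weeks, enriched for CD4 and sorted for GFP. The 3 cKO-labelled libraries came from Bach2fl/fl Foxp3EGFP-Cre-ERT2 mice and the 3 labelled WT from Bach2+/+ Foxp3EGFP-Cre-ERT2 mice. Both groups therefore carried the tamoxifen-inducible Cre and the EGFP reporter at Foxp3, and the labels differ only in the Bach2 alleles. The labels give no tamoxifen treatment, and they do not state whether libraries of a group are from different mice, so every p-value measures the spread between libraries.

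A T cell receptor of the alpha-beta type has an alpha chain joined from a V and a J segment and a beta chain joined from a V, a D and a J segment, each spliced to a constant region. The Trav segments lie on mouse chromosome 14 and the Trbv segments on chromosome 6. The alpha locus of C57BL/6 holds duplicated blocks, so that many Trav segments have near copies marked by d or n in the symbol, whereas most Trbv segments are single. A bulk library sums over many clones, and in it more cells using a segment and more receptor RNA per cell cannot be told apart.

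Reading a V segment in a library of short fragments depends on how far its sequence differs from its relatives, and the segment ends below show that for segments whose values are compared later. Each line gives the last 60 coding bases in GENCODE M21 on GRCm38, 5′ to 3′ on the coding strand, and the capitals mark the last cysteine codon in frame, where the junction with J begins in the rearranged chain. First come the most used beta segment, Trbv13-2, with the other members of its subgroup, and then 3 further beta segments.
Trbv13-1: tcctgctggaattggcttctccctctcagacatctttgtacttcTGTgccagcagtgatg
Trbv13-2: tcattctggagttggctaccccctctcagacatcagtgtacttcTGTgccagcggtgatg
Trbv13-3: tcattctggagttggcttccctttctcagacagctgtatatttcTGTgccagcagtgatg
Trbv5: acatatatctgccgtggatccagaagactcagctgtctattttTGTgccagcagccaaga
Trbv16: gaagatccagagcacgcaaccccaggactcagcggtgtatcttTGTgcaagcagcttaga
Trbv29: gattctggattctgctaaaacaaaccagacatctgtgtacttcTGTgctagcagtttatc

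The alpha segments shown next are close pairs of the subgroups Trav14, Trav8 and Trav3.
Trav14-1: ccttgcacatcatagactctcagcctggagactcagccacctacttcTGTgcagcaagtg
Trav14n-3: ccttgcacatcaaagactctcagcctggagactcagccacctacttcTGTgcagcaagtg
Trav8d-2: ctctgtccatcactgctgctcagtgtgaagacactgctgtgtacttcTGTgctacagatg
Trav8n-2: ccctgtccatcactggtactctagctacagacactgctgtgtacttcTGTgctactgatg
Trav3-1: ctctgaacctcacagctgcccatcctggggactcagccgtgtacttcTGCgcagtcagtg
Trav3-4: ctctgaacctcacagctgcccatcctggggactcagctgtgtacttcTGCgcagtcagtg

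Over the whole coding sequence, Trav14-1 and Trav14n-3 were 92.6% identical with 27 differing positions, Trav8d-2 and Trav8n-2 were 92.6% identical with 25, and Trav3-1 and Trav3-4 were 97.1% identical with 10. Among the beta segments, Trbv13-2 and Trbv13-3 were 90.6% identical and Trbv13-1 and Trbv13-2 were 87.9% identical. Segments of different subgroups stood far lower, with a median identity of 53.2% over 305 Trav pairs and 53.4% over 168 Trbv pairs. Of the 26 Trav members with a coding sequence in the reference, 20 shared at least 1 stretch of 50 bases with another gene, and the median share of such stretches was 31.5%. Only 3 of 19 Trbv members did so: Trbv13-2 and Trbv13-3, each at 0.344% of its stretches, and Trbv5, at 84.6%, whose partner is the overlapping non-coding gene 5830405F06Rik. Values of single Trav segments with near copies are therefore uncertain, and subgroup sums are given beside them. Those sums add only the members, and many of the genes that share stretches with them have no row, so the sums stay uncertain too. The 3 members of the pseudogene type, Trav13-3, Trav8-2 and Trav20, have no coding sequence in that annotation.

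The targeted gene does not check the labels. Bach2, a transcriptional repressor, read 7.88, 9.19 and 6.44 FPKM in cKO 1, 2 and 3, against 3.29, 8.25 and 4.80 FPKM over the WT libraries, so the first group was not lower, and each direction below rests on the labels alone. Foxp3, which defines Treg, ranged from 5.16 to 9.44 FPKM, Cd4 from 318 to 474 FPKM and Cd3e from 312 to 488 FPKM. Markers of other cells were present unevenly: the 5 B cell markers summed to 1268 to 1948 FPKM in the cKO-labelled libraries and 1121 to 2281 FPKM in WT, nearly all of it Ighm, and the 5 myeloid markers to 75.0 to 90.6 and 41.9 to 83.0 FPKM. Cd8a did not exceed 0.531 FPKM, whereas Cd8b1 lay between 18.8 and 22.4 FPKM. Sequencing depth is not stated, but the steps between low values give each library's relative number of fragments behind a given FPKM. With cKO 3 set to 1, it was 0.911 in cKO 1, 1.27 in cKO 2, 1.14 in WT 1, 0.768 in WT 2 and 1 in WT 3. The libraries cKO 2 and WT 2 thus stand at opposite ends, and results that rest on them are given with and without them.

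The Trbv members were read far more deeply than the Trav members. The constant regions of the 2 chains stood closer, at means over the 6 libraries of 4019 FPKM for Trac (alpha) and 5214 FPKM for Trbc1 plus Trbc2 (beta). Most Trav symbols of the reference have no row, and the part of this in the low Trav values was not tested. Mean levels of Trbv segments ran from 1.94 to 513 FPKM with a median of 176, and those of Trav segments from 1.07 to 34.7 FPKM with a median of 6.31. The values of 47 of the 48 members were whole multiples of a step, within a tolerance of 0.02 of a step, and the number of steps is taken as the smallest number of fragments that gives the value. The exception was Trav8-2. A Trbv value rested on 0 to 435 fragments and a Trav value on 0 to 43. Summed over the libraries, the median was 645 fragments for a Trbv segment and 29 for a Trav segment. Accordingly 12 Trav segments were listed at 0 in some library, against 1 Trbv segment, Trbv21. In WT 2, the library with the fewest fragments, 11 of 29 Trav segments were listed at 0, against 0 in WT 3 and 2 to 5 in the other libraries.

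Trbv13-2 had the highest mean share of beta usage in both groups. This segment belongs to the subgroup known in the older naming as V beta 8. Its share of the summed Trbv FPKM was 17.7%, 12.5% and 12.6% in cKO 1, 2 and 3, against 16.3%, 13.0% and 11.4% in the WT libraries. The high libraries were cKO 1 and WT 1, and the groups overlapped, with means of 14.3% ± 2.95 and 13.6% ± 2.49 (SD, n = 3 each). Trbv5 came next, at 11.4%, 9.83% and 11.6% in the cKO-labelled libraries and 8.88%, 11.6% and 9.97% in WT. Its groups overlapped too. The order is that of FPKM: in fragments, Trbv5 exceeded Trbv13-2 in cKO 3 (289 against 267) and in WT 2 (154 against 146).

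Trbv3 took 7.89%, 9.63% and 8.35% in the cKO-labelled libraries and 8.32%, 7.99% and 12.2% in WT, where WT 3 stood above all others. Trbv13-3 took 8.02%, 8.07% and 10.7% against 5.80%, 10.1% and 8.19%, and its lowest value was in WT 1. Trbv1 took 7.64% to 8.86% in the cKO-labelled libraries and 7.81% to 9.93% in WT. For all of these segments the groups overlapped. The same held for Trbv19, at 6.91% to 7.83% and 6.70% to 9.77%, and for Trbv15, at 4.52% to 5.30% and 4.58% to 6.92%. Trbv2 took 4.18% to 5.88% in the cKO-labelled libraries and 3.73% to 4.95% in WT. Trbv20 took 3.27% to 4.98% and 4.10% to 4.99%. These segments with Trbv16 and Trbv13-1, described next, are the 11 with a mean share of at least 4%.

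Of the 48 shares, 3 did not overlap between the groups, all of them beta segments. Trbv16 took 8.41%, 9.74% and 9.0% in the cKO-labelled libraries and 9.95%, 10.1% and 10.6% in WT, means of 9.05% ± 0.665 and 10.2% ± 0.358 (SD, n = 3 each). All cKO-labelled libraries were below all WT libraries, but the gap between the nearest of them, cKO 2 and WT 1, was small. Trbv29 took 1.41%, 1.20% and 1.14% against 1.46%, 1.85% and 1.96%, again with every cKO-labelled library lower. It falls outside the rule for named segments, so its choice followed a look at its values. The third, Trbv21, rested on 1, 2 and 1 fragments in the cKO-labelled libraries and 0, 0 and 1 in WT, too few for a direction. In each case the exact two-sided permutation p was 0.1, the smallest that 3 libraries against 3 can give, so no share can pass 0.05 by this test. Among FPKM values of all 11979 genes tested, the groups did not overlap with cKO higher in 6.96% and lower in 3.75%, and 3 of 48 is no larger a part than that background. The FPKM values of Trbv16 themselves overlapped, at 244, 519 and 370.4 in the cKO-labelled libraries and 328, 287 and 439.5 in WT.

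Summed by subgroup, the 3 members of Trbv13 together took 30.2%, 26.0% and 28.6% of the summed Trbv FPKM in the cKO-labelled libraries and 26.3%, 25.9% and 24.4% in WT. The means were 28.3% ± 2.10 and 25.5% ± 0.992 (SD, n = 3 each), the highest difference of mean share among 17 beta subgroups at 2.75 points, and the groups overlapped because cKO 2 lay below WT 1. Within it, Trbv13-1 took 4.48%, 5.43% and 5.33% against 4.20%, 2.78% and 4.79%, and the low value in WT 2 rested on 35 fragments. Its groups overlapped as well. Trbv16, the only tested member of its subgroup, had the lowest difference, -1.16 points.

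**Figure D1:**
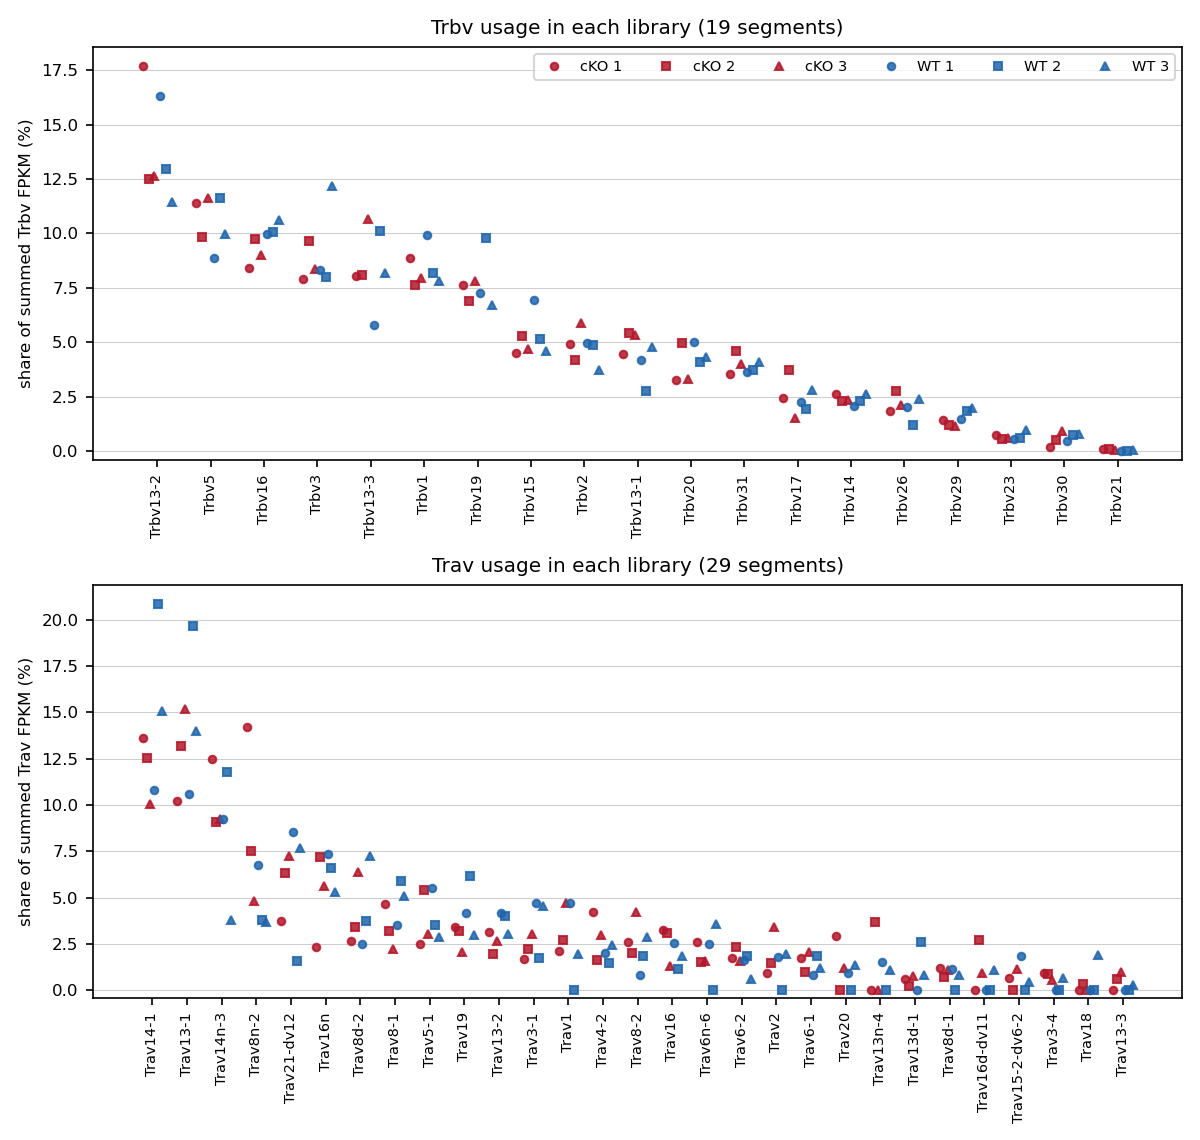
Share of each V segment in the summed FPKM of its chain (vertical axis, percent) in each of the 6 libraries, with the 19 Trbv segments above and the 29 Trav segments below, ordered by mean share. Red marks are cKO-labelled libraries, blue marks WT, and the shape gives the replicate number. Trbv13-2 leads the beta chain in all but WT 3, where Trbv3 is higher, and the Trav points of WT 2 spread widest.

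Among the 29 Trav members, Trav14-1 and Trav13-1 had the highest mean shares. Most of the 128 Trav symbols of the reference have no row, so Trav shares and their order hold among these members and not for the whole alpha repertoire. Trav14-1 took 13.6%, 12.5% and 10.1% of the summed Trav FPKM in the cKO-labelled libraries and 10.8%, 20.8% and 15.1% in WT. Trav13-1 took 10.2%, 13.2% and 15.2% against 10.6%, 19.7% and 14.0%. For both, WT 2 held the highest share, and it rested on 13 and 10 fragments. Both pairs of groups overlapped.

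Trav14n-3, the near copy of Trav14-1 shown above, took 12.5%, 9.09% and 9.25% against 9.24%, 11.8% and 3.81%. Trav8n-2 took 14.2%, 7.52% and 4.84% against 6.75%, 3.77% and 3.66%. It was high in cKO 1 above all, and cKO 3 lay below WT 1. The remaining segments with a mean share of at least 4% were Trav21-dv12, Trav16n, Trav8d-2 and Trav8-1. Of these, Trav21-dv12 ranged from 3.74% to 7.23% in the cKO-labelled libraries and from 1.58% to 8.52% in WT, with 1 fragment behind the lowest value, in WT 2. Trav16n ranged from 2.33% to 7.16% and from 5.32% to 7.37%. Trav8d-2 ranged from 2.65% to 6.40% and from 2.51% to 7.26%, and Trav8-1 from 2.25% to 4.64% and from 3.53% to 5.90%. The order of Trav members also depends on the measure. By fragments, leaving out Trav8-2, the mean share of Trav14n-3 was 5.59% and that of Trav19, not named by the rule on FPKM, 6.28%. None of the 29 Trav shares of FPKM separated the groups. Differences of mean share ran from -3.49 to 4.13 points for Trav and from -1.16 to 1.16 points for Trbv.

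Among the 15 Trav subgroups, Trav14 took a mean of 23.1% of the FPKM summed over the 29 members, Trav13 19.2% and Trav8 18.4%. The highest difference was that of Trav8, which took 25.3%, 16.8% and 18.8% in the cKO-labelled libraries and 14.8%, 15.2% and 19.7% in WT, 3.74 points higher on average. The lowest was that of Trav13, at 14.0%, 19.7% and 19.5% against 16.3%, 26.3% and 19.2%, -2.87 points on average. In both the groups overlapped, and so did those of the other Trav subgroups. The evenness of usage, given as the effective number of segments (the inverse Simpson index, which equals the number of segments if all were used alike), was 11.3, 13.1 and 12.3 for Trbv in the cKO-labelled libraries and 11.9, 11.9 and 12.8 in WT. For Trav it was 12.6, 14.5 and 14.8 against 15.5, 8.63 and 14.0, and WT 2 alone was low.

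The shares of 2 libraries agreed across segments as well between the groups as within them. Across the 19 Trbv segments, Spearman's rho was 0.928 to 0.982 in the 6 pairs of libraries of the same group and 0.932 to 0.986 in the 9 pairs of different groups. Across the 29 Trav segments it was 0.628 to 0.807 and 0.671 to 0.830. These describe likeness over segments, which share each library and are not independent. The spread of a share between libraries of a group could be set against counting error alone, computed from the fragments. The median ratio of the standard deviation between replicates to that from counting was 0.999 over 28 Trav segments and 1.72 over the 19 Trbv segments. It exceeded 1 in 14 Trav and 13 Trbv segments. The highest ratio was that of Trbv13-2, whose replicates spread by 2.39 points where counting gives 0.713, a ratio of 3.35. Thus the spread of Trav shares was about the size that counting gives, and that of most Trbv shares was larger. Counting errors and intervals here treat fragments as independent molecules, which amplified libraries do not ensure.

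**Figure D2:**
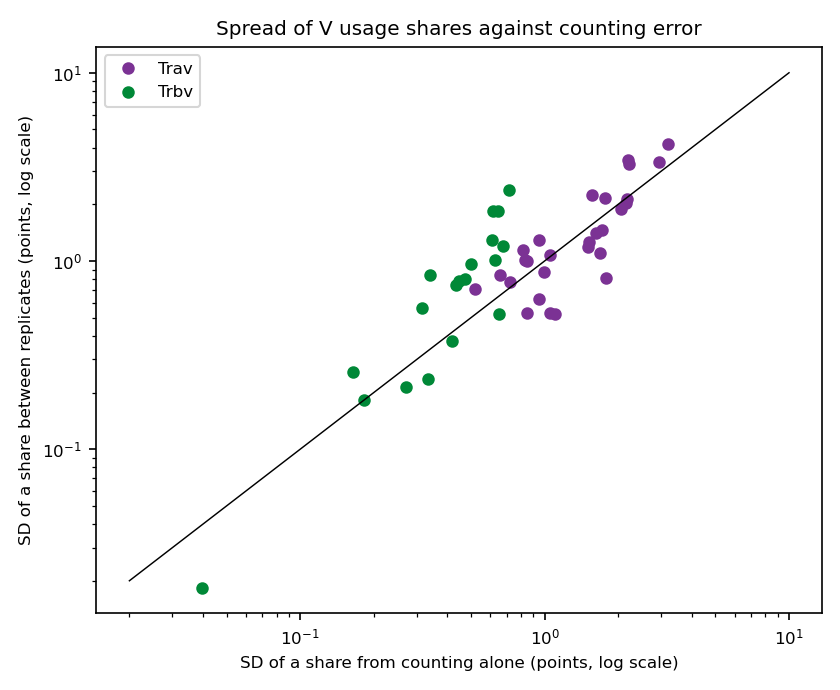
Standard deviation of each segment's share between replicates (vertical axis, percentage points, log scale) against the standard deviation expected from counting fragments alone (horizontal axis, percentage points, log scale), with 1 point per segment, and a line where both are equal. Trav points (purple) lie around the line and 13 of 19 Trbv points (green) lie above it.

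Trav members made up a higher part of the summed V FPKM in the cKO-labelled libraries. Most Trav symbols of the reference have no row, so this holds among the members and not for all V signal. Summed Trav FPKM stood at 217, 405 and 326 in cKO 1, 2 and 3, against 182, 121 and 288 in the WT libraries. The groups overlapped, since WT 3 exceeded cKO 1, and the means were 316 ± 94.4 and 197 ± 84.2 (SD, n = 3 each), a ratio of 1.6. Summed Trbv FPKM stood at 2900.4, 5332 and 4116 in the cKO-labelled libraries and at 3300.0, 2854 and 4138 in WT. Here too the groups overlapped, with a ratio of means of 1.20. The difference of means, 685 FPKM for Trbv, was 77.3 FPKM without cKO 2 and -211 FPKM without cKO 2 and WT 2. That of Trav, 119 FPKM, was 73.2 FPKM without cKO 2 and 35.5 FPKM without both.

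The Trav percent of the summed V FPKM was 6.95%, 7.05% and 7.34% in the cKO-labelled libraries and 5.22%, 4.08% and 6.50% in WT. All 3 cKO-labelled libraries were above all 3 WT libraries, means of 7.12% ± 0.203 and 5.27% ± 1.21 (SD, n = 3 each), and the difference was 1.85 points. WT 3 was nearest, 6.50% against 6.95% in cKO 1. No test was run on this percent, and 3 libraries against 3 give an exact two-sided permutation p of 0.1 at the smallest. Among all genes tested, the FPKM groups did not overlap with cKO higher in 6.96% and lower in 3.75%. The cKO-labelled libraries lay close together and the WT libraries spread. Fragments could not be read for Trav8-2, so the percents in fragments leave out this member, which the FPKM percents include. In fragments, Trav made up 118 of 1689 V fragments in cKO 1, 6.99% with an exact (Clopper-Pearson) 95% binomial interval of 5.82% to 8.31%. It made up 7.12% (6.38% to 7.93%) in cKO 2 and 7.30% (6.34% to 8.35%) in cKO 3. In WT it made up 5.42% (4.54% to 6.41%) in WT 1, 4.15% (3.16% to 5.35%) in WT 2 and 6.58% (5.67% to 7.59%) in WT 3. The intervals of WT 1 and WT 3 overlap those of all cKO-labelled libraries, and that of WT 2 lies below them all. The groups also did not overlap when only members with a mean of at least 5 FPKM were counted, at 6.14% to 6.41% against 3.83% to 5.76%. Nor did they without the 3 pseudogene rows, at 6.59% to 6.91% against 4.0% to 6.23%. Both alternatives are parts of the same values and so are no separate support. Without cKO 2 and WT 2 together, an alternative chosen after seeing the data, the difference was 1.26 points.

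In the constant regions, read from the same receptor transcripts, alpha stood higher relative to beta in the cKO-labelled libraries, by a narrow margin. Trac, the alpha constant region, stood at 4611, 4251 and 4624 FPKM in the cKO-labelled libraries and at 3449, 3916 and 3264 FPKM in WT. Its groups did not overlap, as held with cKO higher for 6.96% of all genes tested. The log2 difference, 0.35 (SE 0.156), did not pass (limma on log2(FPKM + 1), Benjamini-Hochberg adjusted p = 0.925). Trbc1 and Trbc2, the beta constant regions, summed to 5373, 3999 and 6300 FPKM against 4768, 5917 and 4925 FPKM, and overlapped. The ratio of Trac to the summed Trbc was 0.858, 1.06 and 0.734 in the cKO-labelled libraries and 0.723, 0.662 and 0.663 in WT. It was higher in the former without overlap, but cKO 3 lay close to WT 1. The highest ratio was that of cKO 2, the library with the lowest summed Trbc. The V segments did not follow their constant regions library by library. For each 100 FPKM of Trbc there were 54.0, 133 and 65.3 FPKM of Trbv in the cKO-labelled libraries and 69.2, 48.2 and 84.0 in WT, highest in cKO 2 and lowest in WT 2. For each 100 FPKM of Trac there were 4.70, 9.52 and 7.05 FPKM of Trav against 5.27, 3.10 and 8.81, with the same libraries at the ends. Those libraries also had the most and the fewest fragments behind a given FPKM, and the part of this in the V totals was not tested.

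**Figure D3:**
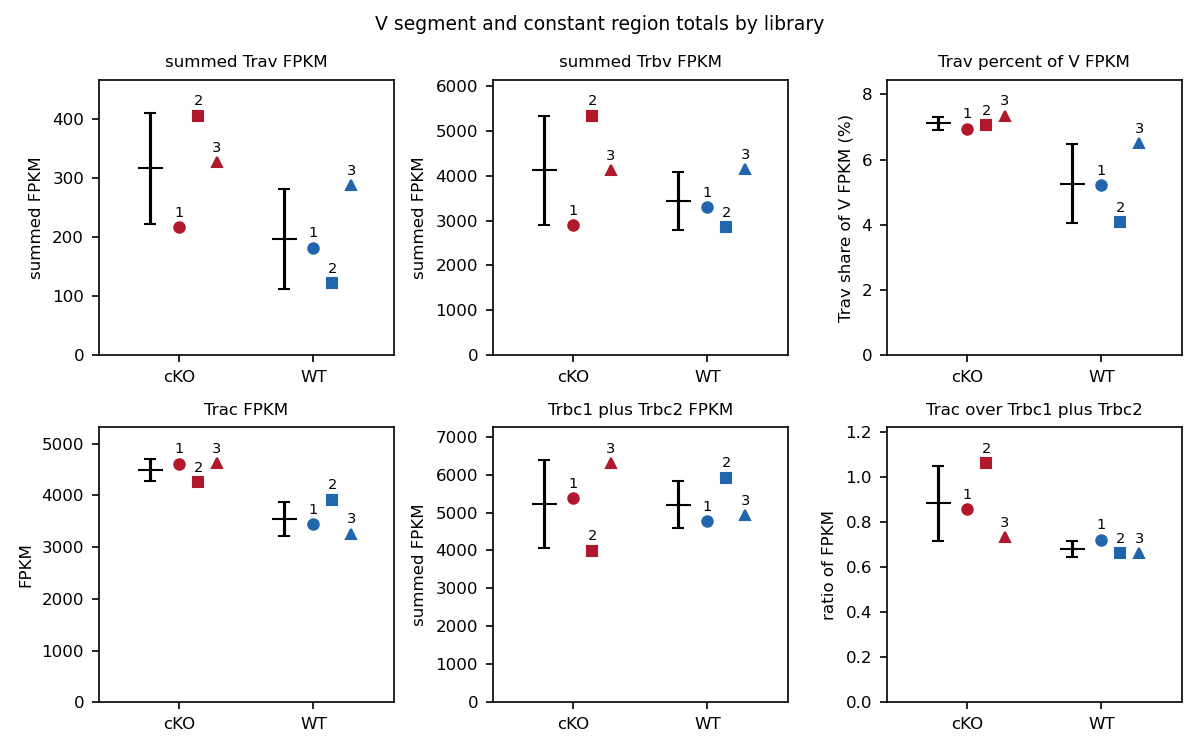
Summed Trav and Trbv FPKM, the Trav percent of V FPKM, Trac FPKM, summed Trbc FPKM and their ratio (vertical axes, with units on each) for the 3 cKO-labelled libraries (red) and the 3 labelled WT (blue), numbered by replicate, with bars for mean and SD. The groups separate in the Trav percent, in Trac and in Trac over Trbc, and overlap in the other panels.

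No single V segment passed the test across all genes. With limma on log2(FPKM + 1) and Benjamini-Hochberg adjustment over 11979 genes, 0 of 48 had an adjusted p under 0.05, where all genes gave 0.00835% higher and 0.0167% lower in the cKO-labelled libraries. The smallest adjusted p of a member was 0.748. At an unadjusted p under 0.05, 6 Trav and 1 Trbv members were higher and 0 were lower, against 3.59% of all genes higher and 1.78% lower. The number of such Trav members was 1 to 8 over the alternatives tried. The difference had a value above 0 for 28 of 29 Trav members, all but Trav18, and for 17 of 19 Trbv members, all but Trbv29 and Trbv30, beside 55.0% of all genes. The median log2 difference was 0.74 for Trav and 0.29 for Trbv, beside 0.03 for all genes. Segments of a chain are summed from the same libraries and share their totals, so these counts follow the totals given above. Of the Trbv segments 14 of 19, and of the Trav segments 12 of 29, had their highest value in cKO 2. With cKO 2 and WT 2 both left out, the medians were 0.13 for Trav, with 18 of the 28 then tested above 0, and -0.16 for Trbv, with 7 of 19 above 0. The upward direction of the Trbv members was not seen without these libraries. They have the highest and the lowest summed Trbv FPKM and were chosen after seeing the data. Leaving them out must lower the difference, so this cannot decide what the direction rests on.

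Trav14n-3 had the smallest p of all members. It stood at 27.1, 36.8 and 30.2 FPKM in the cKO-labelled libraries, from 9, 17 and 11 fragments, and at 16.8, 14.3 and 11 FPKM in WT, from 7, 4 and 4 fragments. All cKO-labelled libraries were above all WT libraries, and the log2 difference was 1.11, SE 0.204 (limma, adjusted p = 0.748). It lay between 0.94 and 1.26 over the 16 alternatives, in which its adjusted p ran from 0.619 to 1. Its near copy Trav14-1 stood at 29.5, 50.6 and 32.8 FPKM against 19.6, 25.3 and 43.3 FPKM, and the groups overlapped. Of the stretches of Trav14n-3, counted as above, 46.2% were shared with other genes, and Trav14-1 was not among these. The sharing genes were Trav14-2, Trav14-3, Trav14d-1, Trav14d-2, Trav14d-3-dv8, Trav14n-1 and Trav14n-2, and none has a row. Their part in the Trav14n-3 values was not tested.

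Trav8n-2 stood at 30.8, 30.4 and 15.8 FPKM in the cKO-labelled libraries and at 12.3, 4.57 and 10.5 FPKM in WT, also without overlap. Its log2 difference was 1.43, SE 0.405 (limma, adjusted p = 0.874), and 2 fragments lay behind the value of WT 2. Of its stretches, 35.1% were shared with Trav8-1, Trav8-2 and Trav8d-2, all of them members. Summed over the Trav8 subgroup, FPKM was 54.8, 68.0 and 61.2 against 26.8, 18.5 and 56.6, and the groups overlapped. Sums of Trav6 overlapped too, and those of Trav14 did not, at 56.6 to 87.4 against 36.4 to 54.3 FPKM. How fragments were split between copies was not tested. Trav6-2 stood at 3.72, 9.34 and 5.08 FPKM against 2.96, 2.20 and 1.69 FPKM, with no more than 7 fragments in any library. Its log2 difference was 1.04. The groups also did not overlap in Trav6-1 and Trav8d-1, which makes 5 of 29 Trav members higher and 0 lower, and 0 of 19 Trbv members in either direction, beside the 6.96% and 3.75% of all genes given above. No Trav6-1 or Trav8d-1 value rested on more than 4 fragments, and both were named after their values were seen.

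The other Trav members among the 5 with the smallest p were Trav4-2 and Trav3-4. Trav4-2 stood at 9.15, 6.57 and 9.72 FPKM against 3.64, 1.81 and 6.94 FPKM, a log2 difference of 1.0, and WT 3 exceeded cKO 2. Its values rested on 6, 6 and 7 fragments against 3, 1 and 5. Trav3-4 stood at 2.0, 3.6 and 1.83 FPKM and was listed at 0 in WT 1 and WT 2 and at 1.83 FPKM in WT 3. Behind the values of Trav3-4 lay only 2, 5 and 2 fragments against 0, 0 and 2. Its close relative Trav3-1, shown above, had a log2 difference of 0.08. Trav1, a segment used by invariant T cells of the mucosal type, stood at 4.57, 11 and 15.3 FPKM against 8.50, 0 and 5.55 FPKM, and its groups overlapped. Trav11 and Trav11d, the segments of invariant NKT cells, were not analysed here.

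Among the Trbv members, the 5 with the smallest p were Trbv21, given above, Trbv2, Trbv13-2, Trbv5 and Trbv13-1. Trbv2 stood at 143, 223 and 242 FPKM in the cKO-labelled libraries and 163, 139.6 and 154 FPKM in WT. Its log2 difference was 0.37, with a 95% interval from -0.14 to 0.89. Trbv13-2 stood at 513, 668 and 519.5 FPKM against 538, 370.0 and 473 FPKM, a difference of 0.31 with an interval from -0.15 to 0.76. For Trbv5, at 331, 524 and 479 FPKM against 293, 332 and 413 FPKM, the difference was 0.35 and the interval from -0.18 to 0.87. For Trbv13-1 the difference was 0.64, with an interval from -0.34 to 1.61. In Trbv2, Trbv13-2, Trbv5 and Trbv13-1 the groups overlapped and the interval includes 0.

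**Figure D4:**
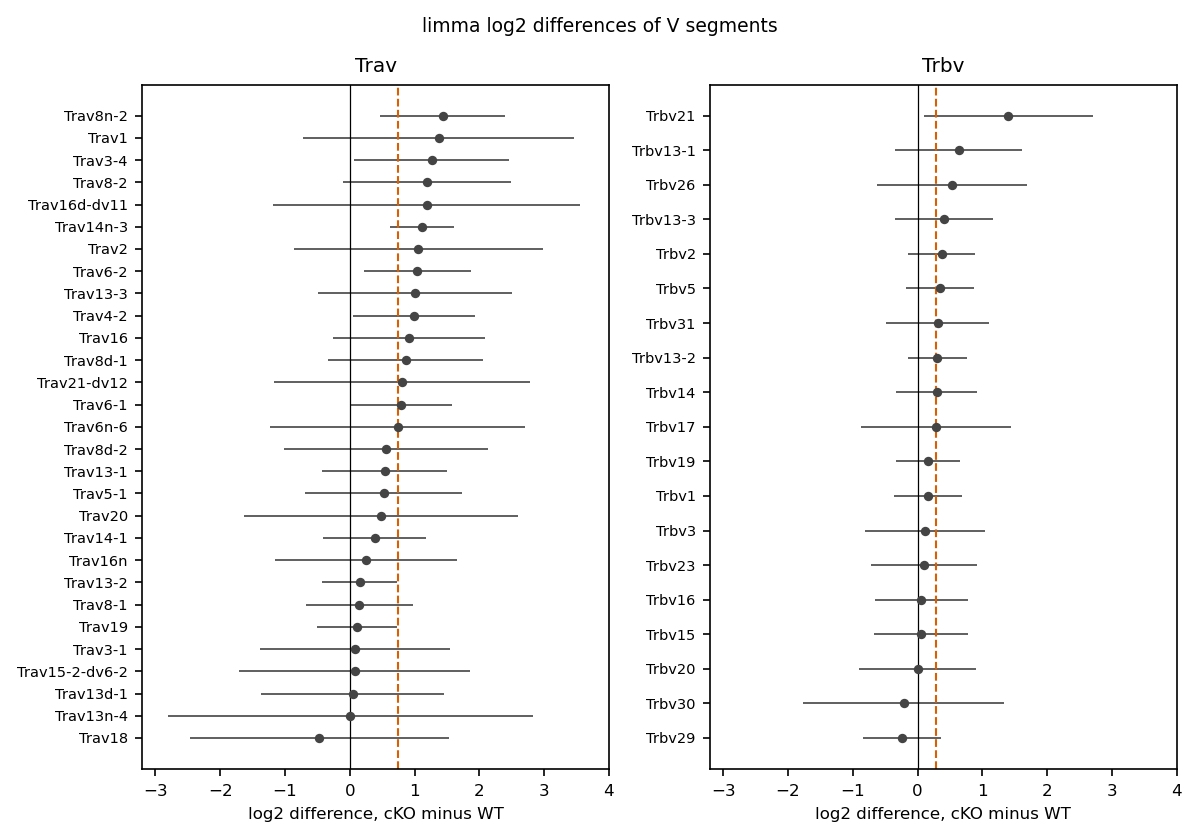
log2 difference, cKO-labelled libraries minus WT, for each Trav (left) and Trbv (right) segment (horizontal axis, log2(FPKM + 1) scale), as points with 95% intervals from limma. The solid line is 0 and the dashed line the median of the chain, 0.74 for Trav and 0.29 for Trbv. Trav intervals are wider than most Trbv intervals, and most intervals include 0.

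The genes that carry the receptor to the surface and pass on its signal did not pass the test either. Of 11 tested genes of the receptor complex and its signalling, Trac, Trbc1 and Trbc2 among them, 0 had an adjusted p under 0.05 (limma). All genes tested gave 0.00835% higher and 0.0167% lower. Of the 11, 9 were above 0, beside 55.0% of all genes, and their median was 0.12 on the log2 scale. Cd3g, a signalling chain of the complex, had a log2 difference of 0.32 and Cd247, the zeta chain, one of 0.17, while that of Zap70, the kinase that binds it, was -0.003. The groups of Cd247 did not overlap, at 308 to 336 against 278 to 305 FPKM, as held with cKO higher for 6.96% of all genes. Apart from Cd247 and Trac, given above, the groups of the listed genes overlapped. Genes of receptor rearrangement were listed at 0 or near it: Rag1, Rag2 and Ptcra were listed at 0 in all 6 libraries, and Dntt, which adds bases at junctions, did not exceed 0.876 FPKM.

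Receptor genes of gamma-delta T cells, listed with the transcription factor Sox13, stood low. Of the 17 genes of this list with a row, 6 were listed at 0 in all libraries, and the sums ran from 19.7 to 35.3 FPKM in the cKO-labelled libraries and from 25.8 to 43.4 FPKM in WT. Of 7 tested, 0 passed (limma), where all genes gave 0.00835% higher and 0.0167% lower. A value above 0 was held by 3 of the 7, beside 55.0% of all genes. Joining segments, given only as totals, overlapped between the groups, with summed Traj from 21146 to 31224 FPKM against 18696 to 25995 FPKM and summed Trbj from 4555 to 13201 FPKM against 3178 to 7907 FPKM. These rows are very short, so a single fragment weighs heavily in them. The 4 NK cell markers summed to 1.23 to 1.80 FPKM in the cKO-labelled libraries and 2.21 to 5.34 FPKM in WT, without overlap. The same held, with cKO lower, for the FPKM of 3.75% of all genes tested. Klrd1 and Klrb1c were lower without overlap, while Ncr1 and Klra8 overlapped and had higher means in the cKO-labelled libraries. All of these values were low, the highest being 3.46 FPKM, of Klrd1 in WT 1. Zbtb16 was listed at 0 in all but WT 1, at 0.0834 FPKM. The part of other cell types in the V segment values was not tested.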

How the data were processed

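RNA from sorted spleen Treg was made into SmartSeq2 libraries, per the labels' protocols. The submitters' processing notes name FastQC, cutadapt and HISAT2, with builds NCBIM37 and mm9, and without versions. The FPKM values were deposited by the authors as a gene table that its name credits to cuffnorm. For annotation and strand setting the sources used here give nothing. No coordinates are printed, since the reference, GENCODE M21 on GRCm38, is of another build. Of 36811 identifiers, 31840 matched a symbol.

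Rows averaging at least 1 FPKM entered limma 3.58.1 (R 4.3.3) as log2(FPKM + 1), without a block and with a variance trend, adjusted by Benjamini-Hochberg at 0.05. On this scale the folds of low genes come out too small. The fit was tested on simulated normal values, with differences set only in genes of higher level. That cannot speak for members resting on few fragments, as many Trav members do. Shares are of the summed FPKM of the members of a chain and were compared by an exact permutation test over libraries. Sums, percents and medians over members got no p. Fragments were read from the steps of the values, with library steps taken from genes under 5 FPKM. Depth is otherwise unknown. Coding sequences were aligned with Biopython 1.88, and Python 3.11.15 with numpy 2.4.6, pandas 2.3.3, scipy 1.17.1 and matplotlib 3.10.9 handled tables and figures.

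Named were segments with a mean share of at least 4%, the 5 Trav and 5 Trbv with the smallest p, the subgroups with the largest and smallest difference, invariant segments, and lists of receptor, gamma-delta and marker genes. The members and lists were chosen with earlier results of these data known. The check given with the alternatives showed no pairing of libraries by replicate number, and it cannot exclude one.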

Additional observations from a re-analysis of the deposited data

How the results depend on the processing

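No V segment passed limma in any of 16 alternatives (other pseudocounts and filters, 3 other scalings of the libraries, a fit lacking the variance trend, a replicate block, each library left out, and cKO 2 and WT 2 left out together, the last chosen after seeing the data), with smallest adjusted p from 0.619 to 1. Leaving out 1 library, the median log2 difference of Trav was 0.30 to 1.01 and that of Trbv 0.01 to 0.47, the lowest for Trav without WT 2 and for Trbv without cKO 2. Without both, they were 0.13 and -0.16. The difference of summed Trav was 119 FPKM, 73.2 to 168 with a library left out and 35.5 without both. That of summed Trbv was 685 FPKM, 77.3 to 1293 and -211. The cause was not tested. The difference of the Trav percent was 1.26 to 2.46 points over its 14 alternatives. Of these, shares of fragments, without Trav8-2 (1.75), and shares without pseudogene rows (1.67) were also chosen after seeing the data. Equal sums moved the median of all genes to 0.17, with 0.84 for Trav and 0.44 for Trbv. The count of shares without overlap was 3 by segment and 3 by subgroup. With the replicate number as a block, 0 V segments passed and the medians stayed 0.74 and 0.29. Deviations of same-numbered libraries correlated at -0.06, -0.18 and -0.02, so the numbers were not taken as pairs. Trav values rest on few fragments, which limits single alpha segments most.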
